A study of Mus musculus with 6 samples.

Results

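The genes described here are the mitochondrially encoded genes and the nuclear genes of the mitochondrial ribosome in a kidney fibroblast line given TGF-β with or without the chemokine CXCL10. They were chosen by symbol. All rows whose symbol starts with MT-, and all rows whose symbol is MRPL or MRPS followed by a digit, were taken, which gave 13 mitochondrially encoded genes and 83 nuclear rows, 96 of the 20323 rows of the deposited table. The series holds 6 RNA-seq libraries of the line that the labels call RFB, labelled kidney, fibroblast and mouse. In 3 libraries the treatment was TGF-β alone, and in 3 it was TGF-β with CXCL10, so that every library comes from TGF-β-treated cells and none from untreated cells. Titles of the CXCL10 libraries carry a volume of 5 µl with no concentration, no time is given, and the SUV39H1 knockdown of the series description is not a treatment of these samples. Although the labels name mouse, all 20323 rows have human Ensembl identifiers.

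Mitochondria keep a small circular genome of their own. It encodes core subunits of complexes I, III and IV of the respiratory chain and of the ATP synthase, together with the ribosomal and transfer RNAs that translate them. Its genes are transcribed from each strand as long precursors that are cut into single messages, most of them from the heavy strand, and MT-ND6 is the only protein gene on the light strand. The messages are translated by the mitochondrial ribosome, whose proteins (MRPL for the large and MRPS for the small subunit, with a few exceptions) are all encoded in the nucleus and imported. Fibroblasts driven by TGF-β make large amounts of secreted matrix, and their energy supply rests on the respiratory chain and on glycolysis.

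Counts per library ranged from 12838106 to 15587409. A gene is compared across libraries in CPM (counts relative to library size, scaled by TMM). Genes are compared with each other in the deposited FPKM, which also divides by gene length. Of 12 fibroblast markers 11 had a mean of at least 1 CPM, with POSTN below it, and the list summed to 60693 to 69352 CPM under TGF-β and 57975 to 63158 CPM with CXCL10. That mean was also reached by 4 of 8 epithelial, 4 of 6 pericyte, 2 of 6 endothelial and 2 of 6 immune markers. Of the 8 epithelial markers 3 (CDH16, LRP2 and UMOD) had 0 counts, and the list summed to at most 34.2 CPM. The T and B cell markers CD3E and MS4A1 also had 0 counts, and the 6 immune markers summed to at most 45.7 CPM, most of it CD68. Endothelial markers summed to 47.9 to 51.9 CPM, and pericyte markers to 414 to 521 CPM under TGF-β and 343 to 448 CPM with CXCL10, with KCNJ8 at 0. In an edgeR fit paired by replicate number 2 of 4 tested pericyte markers (CSPG4 and NOTCH3) and 1 of 4 epithelial markers (CDH1) were lower. Of 12 tested fibroblast marker rows 2 were higher (VIM and THY1) and 3 lower (COL1A1, DCN and LUM). Their part in the results was not tested. Replicate 1 stands apart in both groups. Its counts differed from those of the other TGF-β libraries at a chi-square per degree of freedom of 16.2 and 17.4, against 3.07 between replicates 2 and 3. With CXCL10 these were 8.44 and 8.81, against 2.79. In bulk RNA, less RNA per cell and fewer cells of a type cannot be told apart.

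The comparison asks what CXCL10 added to TGF-β treatment does to these genes. Without pairing of the libraries, 0 of the 13 mitochondrially encoded genes and 0 of the 79 nuclear rows that could be tested passed (edgeR quasi-likelihood test, adjusted p under 0.05 over all 11970 genes tested). The background was the same, as 0% of all tested genes were called. At an unadjusted p under 0.05 this test gave 4 of 13 and 5 of 79 higher and 0 lower, beside 10.5% higher and 10% lower of all genes, and DESeq2 without pairing called 0 in either set, beside 1.74% higher and 1.65% lower of the genes it tested. With libraries paired by replicate number, 3 of 13 and 5 of 79 were higher and 0 were lower. In that fit 9.71% of all tested genes were higher and 8.04% lower, so the 5 of 79 lie below the background for higher genes. The genes that rose in the paired fit were MT-ND2, MT-CYB and MT-ATP8 of the mitochondrial genome and MRPL2, MRPL12, MRPL17, MRPL52 and MRPL55 of the ribosome's large subunit. All of these changes were small, from 0.16 to 0.48 on the log2 scale.

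The messages of the mitochondrial genome were among the most abundant in the cells. MT-CO1, the catalytic subunit of cytochrome oxidase (complex IV), was the highest of all tested genes per length, at 11061 ± 254 FPKM under TGF-β and 10694 ± 237 FPKM with CXCL10 (SD, n = 3 per group here and below). Its partners MT-CO2 and MT-CO3 stood at 5909 ± 641 and 4314 ± 601 FPKM under TGF-β. Of the complex I genes MT-ND4 was highest at 4448 ± 197 FPKM, with MT-ND5, MT-ND2 and MT-ND1 between 1241 and 1888 FPKM. MT-CYB, the cytochrome b of complex III, stood at 1813 ± 129 FPKM. MT-ATP6, a membrane subunit of the ATP synthase, stood at 3322 ± 359 FPKM. The lowest were MT-ND6 at 928 ± 121, MT-ND4L at 545 ± 76.6, MT-ND3 at 357 ± 52.7 and MT-ATP8 at 350 ± 43.1 FPKM, and under TGF-β the last pair did not differ beyond its spread.

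Genes that lie on the same processed message differed widely in FPKM. MT-ATP8 and MT-ATP6 overlap and are carried by a single message, yet MT-ATP6 was 7.59 to 11.2 times as high per length under TGF-β and 8.23 to 8.92 times as high with CXCL10. MT-ND4L and MT-ND4 also share a message, and the ratio of MT-ND4 to MT-ND4L was 7.47 to 9.11 and 8.27 to 9.04. Counts over FPKM give gene lengths of 207 bases for MT-ATP8, 297 for MT-ND4L and 346 for MT-ND3, against 1542 for MT-CO1, so the lowest levels in the set are those of its shortest genes. How reads over a pair of overlapping genes were counted, and if by strand, is not given in the sources used. MT-ND6 lies opposite its neighbours, and without strand its reads could not be told from theirs.

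**Figure D1:**
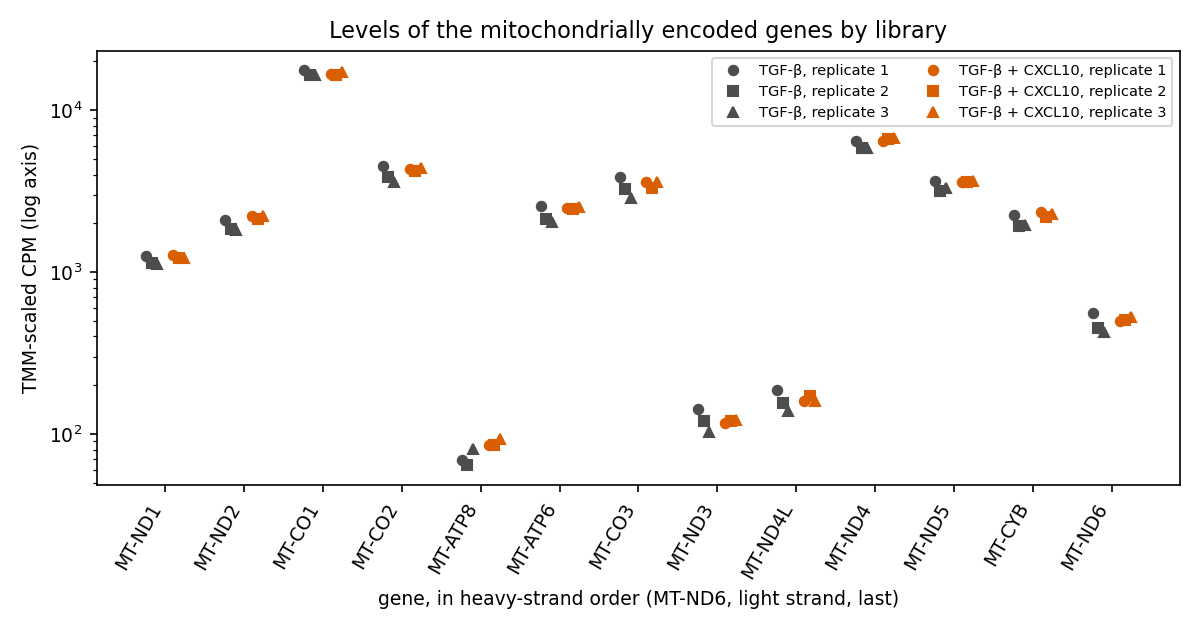
TMM-scaled CPM (log axis) of the 13 mitochondrially encoded genes in each library, in heavy-strand order with the light-strand gene MT-ND6 last; each point is a library. TGF-β replicate 1 (grey circle) is the highest of its group for 12 of the 13 genes, and the CXCL10 libraries (orange) lie closer together than the TGF-β libraries.

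MT-ND2, a core subunit of complex I, was at 2095, 1836 and 1816 CPM in TGF-β replicates 1 to 3 and at 2222, 2135 and 2228 CPM in the CXCL10 libraries. The groups did not overlap. Its paired log2 change was 0.20 (SE 0.05, edgeR adjusted p = 0.00871; unpaired adjusted p = 0.162), and all 3 pairs were higher, by 0.09, 0.22 and 0.29. MT-ATP8, the small membrane subunit of the ATP synthase, was at 69.1, 64.1 and 81.2 CPM and at 85.3, 85.3 and 93.1 CPM. Every CXCL10 library thus lay above every TGF-β library, and the paired change was 0.30 (SE 0.06, edgeR adjusted p = 0.00446; unpaired 0.161). MT-CYB was at 2250, 1925 and 1950 CPM under TGF-β and at 2342, 2203 and 2300 CPM with CXCL10. Here TGF-β replicate 1 lay above CXCL10 replicate 2, so the groups overlapped, and the paired change was 0.16 (SE 0.04, edgeR adjusted p = 0.0213; unpaired 0.223). DESeq2 with pairing called the same 3 genes and none lower, where 5.83% of all genes were higher and 3.87% lower (adjusted p = 0.00393 for MT-ND2, 0.0137 for MT-ATP8 and 0.0213 for MT-CYB).

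The other 10 genes did not pass. MT-ND4 missed the threshold by little (paired change 0.13, SE 0.04, edgeR adjusted p = 0.0504), and its levels of 6469, 5839 and 5825 CPM under TGF-β lay below those of 6483, 6626 and 6719 CPM with CXCL10. That gap between the groups was 6469 against 6483 CPM, the former in TGF-β replicate 1. MT-ATP6 had a paired change of 0.16 (SE 0.05, edgeR adjusted p = 0.0560), with 2547 CPM in TGF-β replicate 1 above all CXCL10 libraries, which held 2440 to 2521 CPM. For MT-CO2, MT-ND5, MT-ND6, MT-ND1 and MT-CO3 the paired changes lay between 0.08 and 0.12, with edgeR adjusted p values from 0.134 to 0.445. MT-ND4L (0.05), MT-CO1 (-0.01) and MT-ND3 (-0.01) were nearest to 0. MT-CO1, by far the most abundant, was at 17584, 16412 and 16457 CPM under TGF-β and at 16648, 16441 and 17160 CPM with CXCL10, fully intermingled. In all, 3 of the 13 genes had groups that did not overlap with CXCL10 higher, and 0 with CXCL10 lower, beside 11.1% and 11.2% of all tested genes.

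By complex, 1 of the 7 complex I genes, 0 of the 3 complex IV genes, the complex III gene and 1 of the 2 ATP synthase genes passed in the paired fit, in which 9.71% of all genes were higher. Of the 13 fitted changes 11 were above 0, beside 48.7% of all tested genes, and their median was 0.10, against -0.01 over all genes. The genes lie on shared precursors, so they are not independent of each other.

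These differences depend on which TGF-β libraries are compared. TGF-β replicate 1 was the highest of its group for 12 of the 13 genes, beside 39.1% of all tested genes, and MT-ATP8 was the exception. The median gene of the set was 0.22 higher (log2) in that library than in the other TGF-β libraries, which is more than the median paired change with CXCL10. In the pair of replicate 1 the median difference was -0.03, and in those of replicates 2 and 3 it was 0.16 and 0.24. An unpaired fit that omitted TGF-β replicate 1 called 8 of the 13 genes higher and 0 lower (10.7% and 8.61% of all genes). MT-ND2 and MT-CYB were among the 8, while MT-ATP8 was at an edgeR adjusted p of 0.0710. With both libraries of replicate 1 left out, the paired fit called 11 higher and 0 lower (12.7% and 10.9% of all genes). Without both libraries of replicate 2 it called only MT-ATP8 of the 13 (5.66% of all genes were higher and 4.67% lower). Without both of replicate 3 it again called only MT-ATP8 (4.46% and 3.02%). Why replicate 1 is high was not tested.

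The summed level of either set did not separate the groups. Mitochondrially encoded genes held 4.5%, 4.16% and 4.04% of all counts in the TGF-β libraries and 4.31%, 4.24% and 4.41% in the CXCL10 libraries. The means of 4.23 ± 0.24% and 4.32 ± 0.08% differed by less than the spread, and the CXCL10 values fell within the range of the TGF-β values. The MRPL and MRPS genes held 0.165%, 0.152% and 0.150% and then 0.166%, 0.161% and 0.158% of counts, again overlapping. Both sets were highest, among TGF-β libraries, in replicate 1. The ratio of mitochondrially encoded to ribosomal protein counts was 27.2, 27.3 and 26.9 under TGF-β and 25.9, 26.4 and 27.8 with CXCL10. As log2 ratios of the means, the differences were 0.03 for the mitochondrially encoded and 0.05 for the nuclear sum. In TMM-scaled CPM, the scale used for single genes, they were 0.07 and 0.09. Without TGF-β replicate 1 the ratios of the shares were 0.08 and 0.10. Without TGF-β replicate 3 they were -0.0029 and 0.03, so the direction of the former rests on that library.

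**Figure D2:**
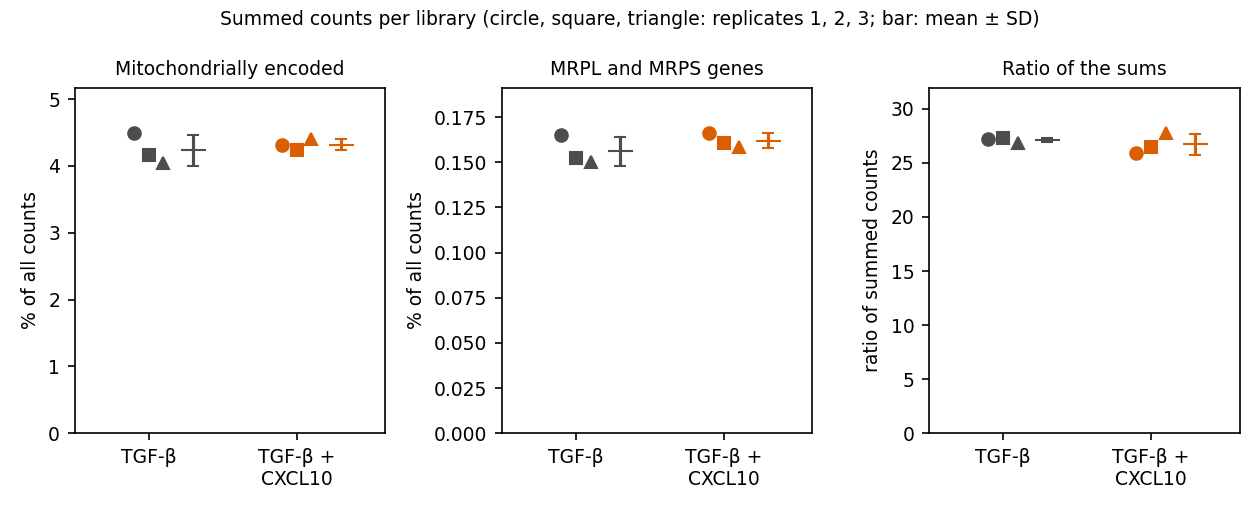
Share of all counts (%, axes from 0) on the 13 mitochondrially encoded genes and on the 83 MRPL and MRPS rows, and the ratio of the 2 sums, in each library, with mean ± SD per group. The CXCL10 libraries (4.24% to 4.41%) lie within the TGF-β range of 4.04% to 4.5%, and the ratio is 25.9 to 27.8 over all libraries.

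The make-up of the mitochondrially encoded counts, which does not depend on how libraries are scaled, differed slightly. MT-CO1 held 38.9%, 40.7% and 41.5% of them under TGF-β and 38%, 38.2% and 38.4% with CXCL10, means of 40.3 ± 1.3% and 38.2 ± 0.2%. Its share was lower in every CXCL10 library than in every TGF-β library. The shares of MT-ND2, MT-CYB, MT-ATP6 and MT-ND4 were higher in every CXCL10 library. For MT-ND2 the shares were 4.63%, 4.55% and 4.57% and then 5.07%, 4.96% and 4.98%, a log2 ratio of 0.13. For MT-ATP6 they were 5.63%, 5.27% and 5.10% and then 5.71%, 5.67% and 5.63%, and the gap was from 5.6334% in TGF-β replicate 1 to 5.6348% in CXCL10 replicate 3. For MT-CYB they were 4.98%, 4.77% and 4.91% and then 5.34%, 5.12% and 5.14%. Over all tested genes, 8.03% had a higher and 11% a lower count relative to the mitochondrially encoded sum with no overlap between groups, so 4 of 13 higher and 1 of 13 lower stand beside these. The shares sum to a fixed whole, and a lower share of MT-CO1 raises those of the others. They show unequal change within the set and no change of any single gene. Because these 5 shares do not overlap between the groups, leaving out a library cannot turn their direction. With any library left out in turn, the log2 ratios were 0.12 to 0.13 for MT-ND2 and -0.11 to -0.06 for MT-CO1.

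**Figure D3:**
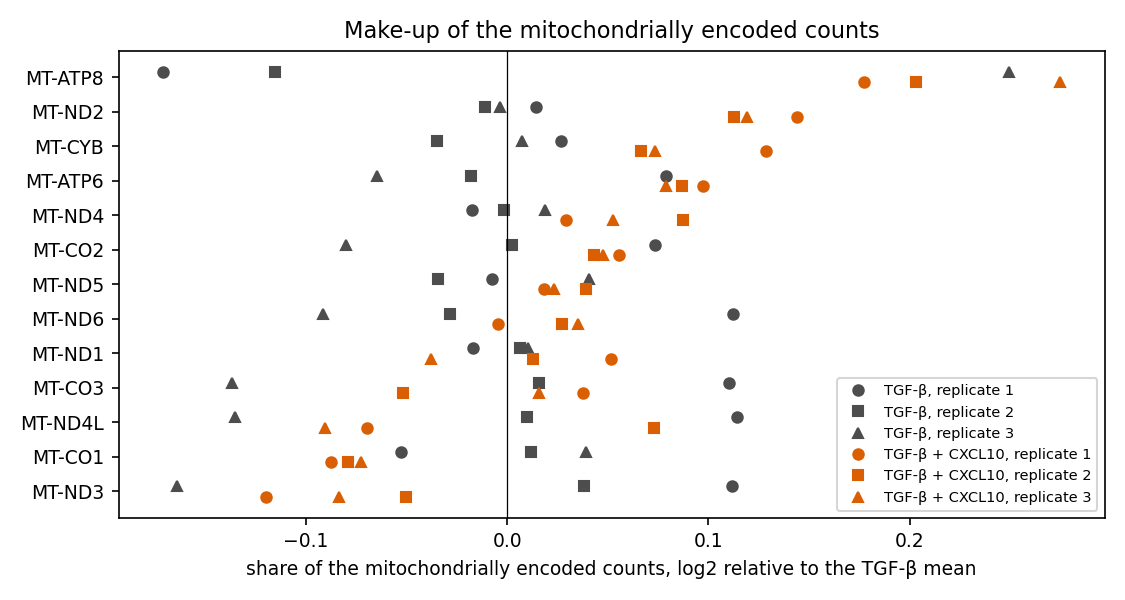
Share of each gene among the mitochondrially encoded counts, as log2 relative to the mean of the TGF-β libraries; each point is a library. For MT-ND2, MT-CYB, MT-ATP6 and MT-ND4 all CXCL10 libraries (orange) lie to the right of all TGF-β libraries (grey), and for MT-CO1 to the left.

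The nuclear set held 83 rows for 78 symbols, since MRPL2, MRPS5 and MRPS17 have a pair of rows each and MRPL30 has 3. Of these, 79 rows had enough counts to be tested. The 4 that were not are second rows: MRPL2 (ENSG00000288564) with 0 counts in every library (3 counts, the limit that a count of 0 leaves, are 0.192 to 0.234 CPM), MRPL30 (ENSG00000241962 and ENSG00000273155) with at most 6 counts, and MRPS17 (ENSG00000249773) with at most 3. The MRPS5 row ENSG00000144029 was tested but held 26, 14 and 0 counts under TGF-β and 0, 0 and 12 with CXCL10. The other MRPS5 row held 283 to 388, and reads could be shared between them, so MRPS5 is uncertain. MRPS36 fits the symbol rule but is a component of the oxoglutarate dehydrogenase complex and not of the ribosome. It was at 5.18 ± 1.10 and 5.02 ± 0.83 CPM. MRPS18A and MRPS30, despite their names, sit in the large subunit.

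The ribosomal protein genes were expressed at a far lower level than the mitochondrially encoded genes, with a median of 14.9 FPKM beside 8.01 FPKM over all tested genes. The highest were MRPL37 at 54.7 ± 4.28 and 55.5 ± 2.46 FPKM, MRPL3 at 44.1 ± 4.70 and 47.8 ± 1.57 FPKM and MRPL51 at 44.2 ± 6.38 and 44.4 ± 2.23 FPKM. MRPL37 and MRPL51 belong to the proteins without a bacterial counterpart, which the mitochondrial ribosome gained during evolution. MRPL3 lies near the peptidyl transferase centre. Apart from the low MRPS5 row, the lowest were MRPL50 at 2.10 ± 0.47 and 2.45 ± 0.37 FPKM and MRPS17 at 3.13 ± 0.41 and 2.68 ± 0.32 FPKM. None of these genes passed either edgeR test.

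MRPL12, the stalk protein of the large subunit that also binds the mitochondrial RNA polymerase, was at 33.2, 29.1 and 27.7 CPM under TGF-β and at 40.8, 36.2 and 34.5 CPM with CXCL10. The groups did not overlap, and the 3 pairs by replicate number differed by 0.30, 0.31 and 0.32. How even they are depends on the matching of replicates 2 and 3, which the counts hardly decide. The paired change was 0.31 (SE 0.08, edgeR adjusted p = 0.0168; unpaired 0.169). MRPL2, a conserved protein next to the catalytic centre, was at 10.5, 12.2 and 10.9 CPM and then at 14.4, 16.4 and 14.4 CPM (paired change 0.43, SE 0.12, edgeR adjusted p = 0.0260). For this gene TGF-β replicate 1 was the lowest of its group. MRPL17 was at 23.7, 17.6 and 18.6 CPM and then at 29.7, 22 and 26.4 CPM (0.38, SE 0.10, edgeR adjusted p = 0.0156), and TGF-β replicate 1 lay above CXCL10 replicate 2.

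MRPL55 showed the largest rise of the set, with the smallest difference in the pair of replicate 1. It was at 11.6, 8.10 and 9.69 CPM and then at 12.7, 15.1 and 13.2 CPM. The differences within its pairs were 0.12, 0.89 and 0.44 (paired change 0.48, SE 0.15, edgeR adjusted p = 0.0457). The contrast of the last 2 depends on the matching of replicates 2 and 3, which the counts hardly decide. MRPL52 was at 12.2, 11.1 and 9.39 CPM and then at 14.5, 14.5 and 13.9 CPM (0.40, SE 0.13, edgeR adjusted p = 0.0473). For both genes the groups did not overlap. Of the 5 genes, 3 (MRPL2, MRPL12 and MRPL17) were also called when the paired fit was scaled by library totals alone (7.34% of all genes higher, 11.3% lower). DESeq2 with pairing called 0 of them, with adjusted p values from 0.0960 to 0.242. Without both libraries of replicate 2 only MRPL17 of the set was called higher (5.66% of all genes higher, 4.67% lower). Without both of replicate 3 none was, while the low MRPS5 row was called lower there (4.46% and 3.02%).

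**Figure D4:**
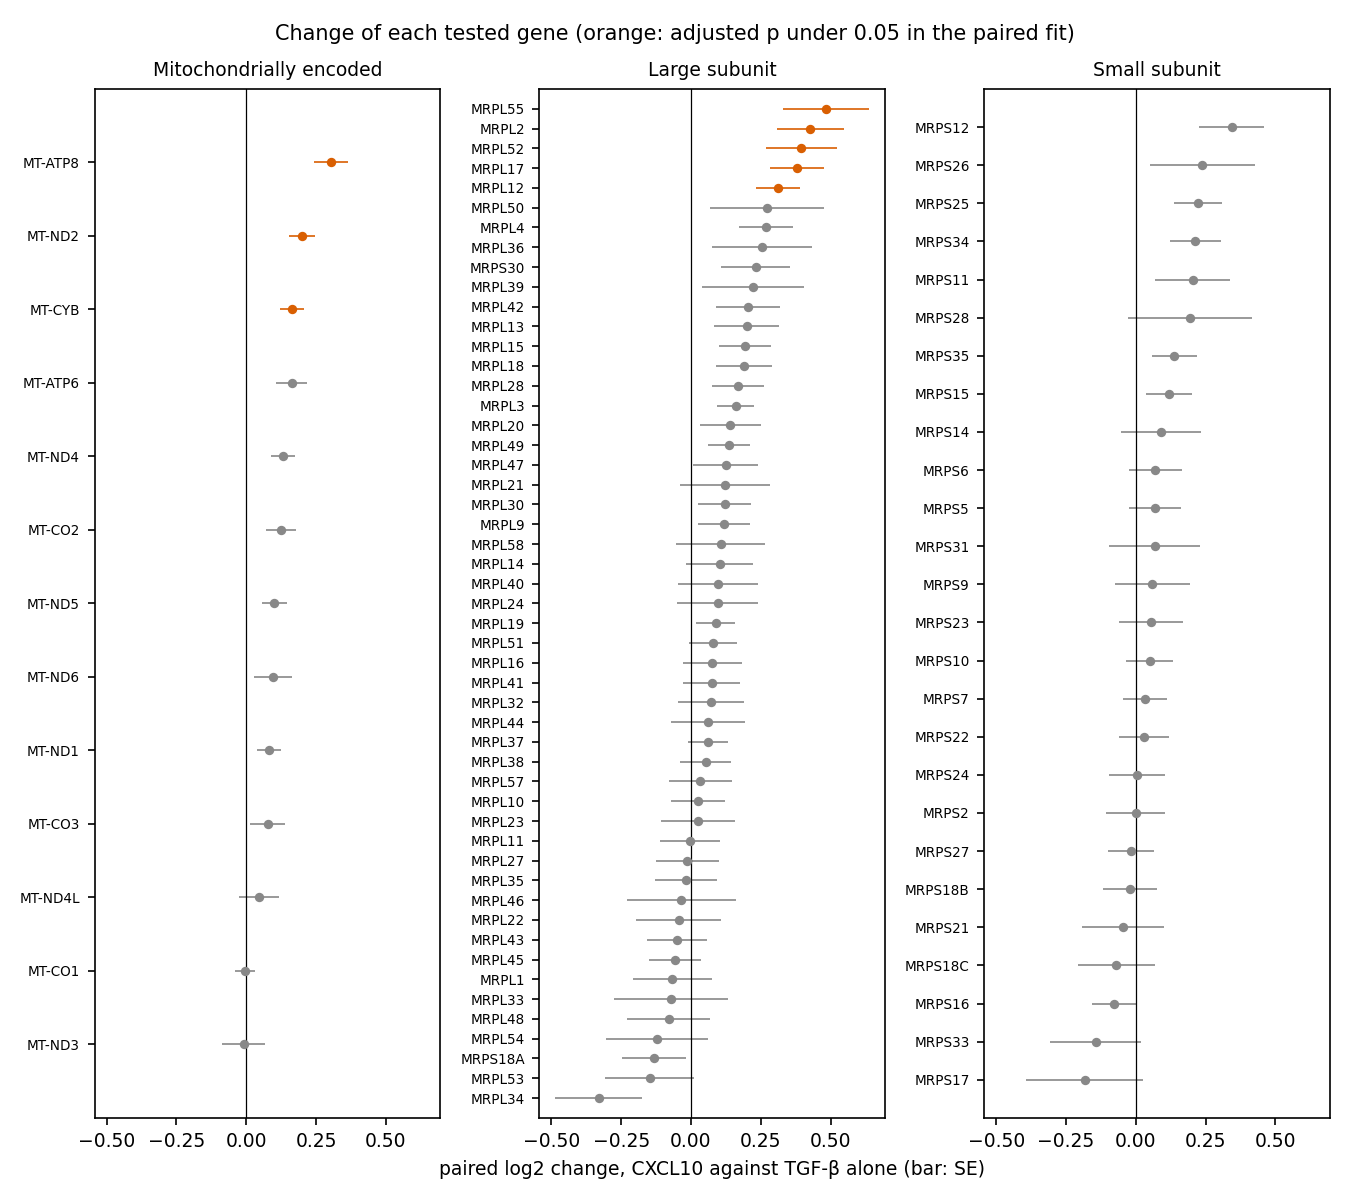
Paired log2 change with its SE (bars) of each tested gene, by set and subunit, with CXCL10 against TGF-β alone. Genes past the threshold (orange) are the 3 of 13 mitochondrially encoded genes and 5 large subunit genes; the low MRPS5 row and MRPS36 are not drawn.

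The 2 subunits moved little. In the paired fit 5 of 51 large subunit rows were higher and 0 lower, with a median of 0.10, and 0 of 27 small subunit rows were called, with a median of 0.05. The share in the large subunit is near the 9.71% of all genes that were higher in that fit. Whether the subunits differ was not tested. The ratio of large to small subunit counts was 1.93, 1.83 and 1.90 under TGF-β and 1.91, 1.98 and 1.95 with CXCL10, which overlap. Proteins with a bacterial counterpart had 4 of 47 rows higher and a median of 0.09, and those without had 1 of 31 and a median of 0.06, both shares below that background. The small subunit row nearest to the threshold was MRPS12, the counterpart of the bacterial accuracy protein, at a paired change of 0.34 (SE 0.12, edgeR adjusted p = 0.0581). MRPL34 had the lowest change apart from the low MRPS5 row, at -0.33 (SE 0.16, edgeR adjusted p = 0.172), and both were singled out once their values were known. MRPS18A (-0.13), MRPS18B (-0.02) and MRPS30 (0.23) were not called, with edgeR adjusted p values of 0.474, 0.928 and 0.227.

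Over the 79 rows the median paired change was 0.07, with the middle 50% of rows between -0.02 and 0.18, against a median SE of 0.11 for a single row. Of them 55 were above 0, beside 48.7% of all tested genes. Groups did not overlap for 7 rows with CXCL10 higher and for 1 (MRPS16) with CXCL10 lower, or 7 and 1 of 79 beside 11.1% and 11.2% of all tested genes. The mitochondrially encoded set had a slightly larger median (0.10), with a smaller median SE of 0.05 at its far higher counts. TGF-β replicate 1 was the highest of its group for 55 of the 79 rows, beside 39.1% of all tested genes. The median row was 0.18 higher there than in the other TGF-β libraries. The median difference was 0.02, 0.09 and 0.09 in the 3 pairs. The level of a gene and its paired change correlated across the 79 rows at r = 0.58, and at 0.12 over 78 without the low MRPS5 row, so that this relation rests on a single row. Across the 13 mitochondrially encoded genes r was -0.15. These are correlations across genes of the same libraries, and genes are not independent replicates.

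The authors' deposited table lists adjusted p values no lower than 0.138 for the 13 mitochondrially encoded genes and 0.222 for the 79 nuclear rows, so none passed 0.05 there. At that threshold the authors' deposited table has 0.714% of its rows with a count higher and 0.618% lower.

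The wider machinery of mitochondrial gene expression was taken from 9 lists with 126 genes, and 0 genes of any list passed without pairing. In the paired fit 8 of the lists had a single riser and no faller, where 9.71% of all genes were higher and 8.04% lower. A single riser is near the higher share in the list of 10 tested rows, above it in shorter lists and below it in longer ones. DESeq2 with pairing also called POLG, MPV17L2 and MYC of these 8 risers. It did not call POLRMT (adjusted p = 0.0791), AURKAIP1 (0.0765), PDF (0.192), EARS2 (0.225) or PUS1 (0.258). POLRMT, the mitochondrial RNA polymerase, was at 36.4, 30.2 and 32.5 CPM under TGF-β and at 44.2, 42.4 and 37.5 CPM with CXCL10, with no overlap, and rose by 0.33 (SE 0.08, edgeR adjusted p = 0.0162). It was the only one of 7 transcription genes called. TFAM, which packages the mitochondrial genome and opens its promoters, was at 18.9 ± 0.64 and 18.2 ± 1.65 CPM (-0.05, SE 0.11, edgeR adjusted p = 0.792). POLG, the catalytic subunit of the mitochondrial DNA polymerase, was at 46.3, 48.8 and 48.6 CPM and then at 63.3, 56.3 and 59.0 CPM, and was the only one of 10 replication rows called (0.31, SE 0.07, edgeR adjusted p = 0.00941). POLG2, of the same list, was lower, at 5.07, 4.36 and 3.98 CPM and then at 3.52, 2.29 and 2.92 CPM. Its groups did not overlap, but it did not pass (-0.63, SE 0.25, edgeR adjusted p = 0.104). Of the 10 replication rows 6 had a paired change above 0.

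Among 25 rows of RNA processing and decay genes the pseudouridine synthase PUS1 rose (0.35, SE 0.11). LRPPRC, which stabilises mitochondrial messages, was at 118 ± 4.05 and 120 ± 5.31 CPM (0.02, SE 0.06, edgeR adjusted p = 0.839). Among 24 tested rows of ribosome assembly genes MPV17L2, a factor of large subunit assembly, rose by 0.55 (SE 0.12, edgeR adjusted p = 0.00508), from 15.6, 9.90 and 10.7 CPM to 22.6, 15.5 and 14.8 CPM. The groups overlapped through TGF-β replicate 1. Of 15 translation factors PDF, the enzyme that removes the formyl group from new proteins, rose by 0.54 (SE 0.16), from 6.28 ± 0.33 to 9.14 ± 0.50 CPM, while the elongation factor TUFM was at 99.95 ± 5.49 and 99.7 ± 2.73 CPM (0.00, edgeR adjusted p = 0.981). Of the 15 paired changes 6 were above 0, with a median of -0.03. Groups did not overlap for 2 of the 15 with CXCL10 higher and 3 with CXCL10 lower, beside 11.1% and 11.2% of all tested genes. EARS2, the glutamyl-tRNA synthetase, rose by 0.27 and was the only one of 17 tested synthetase rows called. AURKAIP1, a small subunit protein without an MRPS symbol, rose by 0.31 (SE 0.08), the only call among 5 such proteins.

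**Figure D5:**
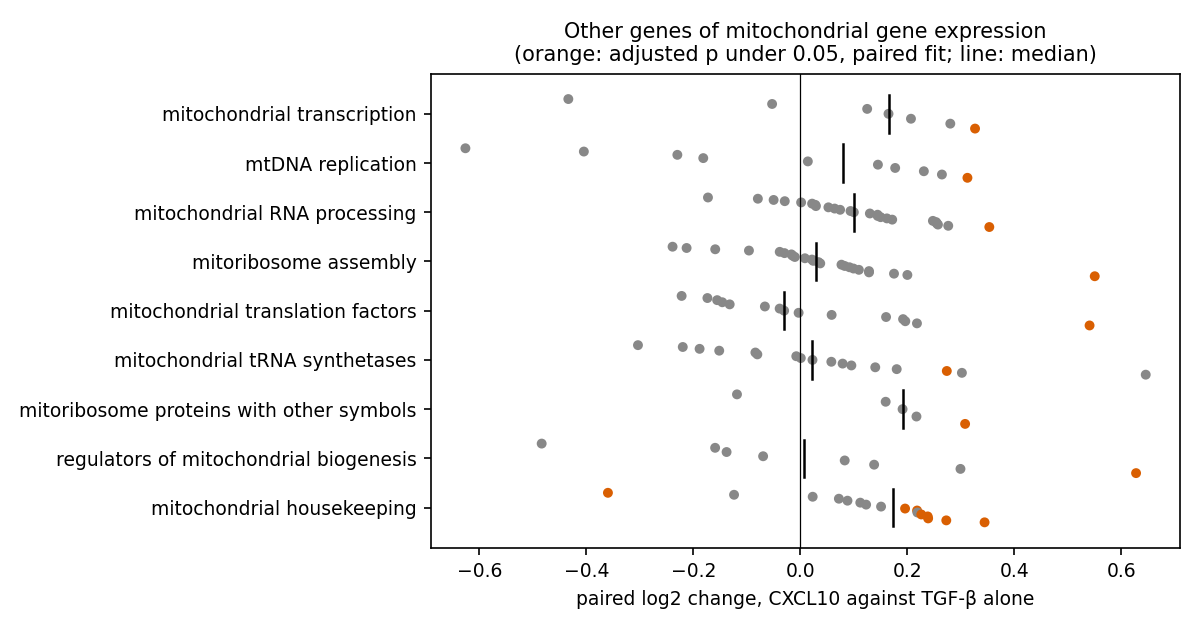
Paired log2 change of each tested gene in 9 lists of mitochondrial gene expression and housekeeping, with the list median as a line; orange points passed the threshold in the paired fit. Lists of the expression machinery have at most 1 called gene each, while the housekeeping list has 7 higher and 1 lower.

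Of 8 tested regulators of mitochondrial biogenesis only MYC, a driver of ribosome and mitochondrial genes, was called. It was at 37.1, 24.7 and 26.1 CPM under TGF-β and at 52.7, 41.1 and 41.0 CPM with CXCL10, a paired change of 0.63 (SE 0.08, edgeR adjusted p = 0.000185; unpaired 0.161). NRF1, a transcription factor that binds promoters of respiratory and mitochondrial transcription genes, was at 7.25, 6.41 and 7.89 CPM and then at 5.48, 4.66 and 5.25 CPM. Its groups did not overlap, but it did not pass (-0.48, SE 0.18, edgeR adjusted p = 0.0890). PPARGC1A, which encodes the coactivator PGC-1α, had 1 count in a single CXCL10 library and 0 in the other 5, so no difference was detectable at this depth.

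The 16 mitochondrial housekeeping genes (channels, import, chaperones and proteases) gave the highest share of calls among the 9 lists, with 7 higher and 1 lower in the paired fit (9.71% and 8.04% of all genes) and a median of 0.17. Their median level was 92.2 CPM and their median SE 0.06, beside 21.6 CPM and 0.10 over all tested genes. The part of this in the share of calls was not tested. DESeq2 with pairing called 3 of the 7 (TOMM40, HSPD1 and VDAC2) and LONP1, and not TOMM20, TIMM23, CLPP or PHB (adjusted p from 0.108 to 0.232). The median of these genes was also 0.18 higher in TGF-β replicate 1 than in the other TGF-β libraries. With that library left out and no pairing, 6 were higher and 1 was lower (10.7% and 8.61% of all genes). The import pore TOMM40 rose by 0.34 (SE 0.07), the matrix chaperonin HSPD1 by 0.23 (SE 0.05) and the outer membrane channel VDAC2 by 0.22 (SE 0.05), with edgeR adjusted p values of 0.00570, 0.00628 and 0.01. TGF-β replicate 1 lay above CXCL10 replicates 2 and 3 for TOMM40 (65.1 against 63.1 and 57.6 CPM). It lay above CXCL10 replicate 2 for HSPD1 (175 against 173 CPM), so the groups overlapped for both genes, and for VDAC2 they did not. LONP1, the matrix protease that degrades damaged proteins, fell from 150, 189 and 199 CPM to 115, 151 and 154 CPM (-0.36, SE 0.05, edgeR adjusted p = 0.000227). TGF-β replicate 1 was the lowest of its group for LONP1, and it was at the level of CXCL10 replicates 2 and 3. Unpaired adjusted p values of these 4 genes lay between 0.179 and 0.251.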

How the data were processed

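Per the labels' protocols, RNA came from an RNeasy kit and libraries from a SMARTer mRNA-seq kit. Genome builds in the submitters' processing notes are GRCm38 and mm10, but all 20323 rows have human Ensembl identifiers and 0 match the mouse annotation, so no coordinates or sequences are given. Neither aligner nor counting tool is named in the sources used. Per the file headers, the authors deposited raw counts and FPKM per library, and the authors' mean FPKM, log2 ratio, p-value and adjusted p per gene.

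Counts were tested with edgeR 4.0.16 (R 4.3.3; TMM scaling, filterByExpr at 10 counts per library and 15 in total, quasi-likelihood test, Benjamini-Hochberg over 11970 genes, threshold 0.05). DESeq2 1.42.0 was an alternative. Log2 CPM used a prior count of 2. Both edgeR fits were run on simulated data in which libraries with the same number shared an effect. That cannot show whether the pairing holds in the real libraries. The labels do not say if replicates are separate cultures, and p-values then measure only the spread between these libraries. Replicates of a group all differed by more than sampling noise. The fit without a replicate block is the principal one. Libraries with the same number deviated together from their groups, with correlations of 0.33, 0.12 and 0.16 for replicates 1, 2 and 3. Each was over the 0.1 set as the rule for pairing, so the paired fit is given too. Unlike numbers among replicates 2 and 3 correlated at 0.080 and 0.082, and those that involve replicate 1 at -0.22 to -0.17. The counts thus set replicate 1 apart but hardly tell the pairs of replicates 2 and 3 from each other. This pairing comes from the counts, not from the labels.

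Named were all mitochondrially encoded genes, ribosomal genes past the threshold (up to 12 a direction), the 3 highest and 3 lowest in FPKM, those not tested, up to 3 a direction in each list, and 11 genes by name. Members and lists were chosen with earlier results of these data known, and lists are described by counts and medians with no set test. Of the marker lists, 3 nuclear-retained RNAs had no row.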

Additional observations from a re-analysis of the deposited data

How the results depend on the processing

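Counts of genes called higher moved with the pairing. With the replicate block 3 mitochondrially encoded genes and 5 nuclear ribosomal rows were higher, against 0 and 0 without it. Of all tested genes 9.71% were higher with the block and 0% without it. With the block and scaling by library totals alone 3 and 3 were higher (7.34% of all genes). By DESeq2 with the block 3 and 0 were (5.83%). Without 1 library and without the block, the counts of higher genes ranged from 0 to 8 and from 0 to 7. The upper values came without TGF-β replicate 1, where 10.7% of all genes were higher. Without both libraries of a replicate number and with the block they ranged from 1 to 11 and from 0 to 8. The share of all genes that were higher ranged from 4.46% to 12.7% in these fits. Its upper value, like those of both sets, came without replicate 1. Counts of lower genes were 0 in all of these fits, except for 1 nuclear row (the low MRPS5 row) without replicate 3. Of all genes 0% to 11.3% were lower in these fits, and 3.02% without replicate 3. The median log2 change of the mitochondrially encoded genes was 0.10, and it ranged from 0.060 to 0.193 without 1 library and reached 0.196 without both libraries of replicate 1. For the ribosomal rows it was 0.07 and ranged from 0.04 to 0.14. Other scalings, no filter on low counts, and leaving mitochondrial counts out of the scaling gave 0 calls without the block, also over all genes. The cause of these differences was not tested.

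Some log2 changes that were not called with all libraries turned sign. Most of them were small, but MRPL50 (0.27 in the paired fit) and the low MRPS5 row (-1.54) were not. Scaling by library totals gave -0.0037 for MT-ND4L and -0.0215 for LRPPRC (-0.0211 with the block). No filter gave 0.0046 for MT-CO1 and 0.0066 for TUFM, scaling without mitochondrial counts gave 0.00098 and 0.0030, and DESeq2 with the block gave 0.00027 for TUFM. Without 1 library, ranges were -0.020 to 0.193 for MT-CO3, -0.049 to 0.165 for MT-ND4L, -0.116 to 0.107 for MT-ND3, -0.023 to 0.029 for MT-CO1, -0.0031 to 0.204 for MRPL51, -0.0037 to 0.060 for LRPPRC, -0.095 to 0.023 for TFAM and -0.034 to 0.037 for TUFM. With the block, values without replicate 1 were 0.128 for MT-ND3, 0.033 for MT-CO1, 0.0075 for the low MRPS5 row, -0.024 for LRPPRC and 0.021 for TUFM. Those without replicate 2 were -0.0088 for MT-ND4L and -0.0025 for MRPL50. Those without replicate 3 were -0.038 for MT-CO3, -0.029 for MT-ND4L, -0.018 for MRPL37, 0.011 for MRPS18B and 0.025 for TFAM.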
